A study of Mus musculus with 141 samples.

Results

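Gata3 encodes GATA3, a zinc-finger transcription factor best known as the regulator that directs helper T cells to the Th2 fate. It was found by its symbol as 1 of the 46517 gene rows of the deposited expression table, and it is described here in all 47 condition and time groups, which hold 141 libraries. The cells were naive CD4 T cells of C57BL/6 mice, of an age the labels do not give, sorted from spleen and lymph nodes as CD4+CD25-CD44lo cells. Their total RNA was sequenced at once (0 h) and after 0.5 to 72 h on plates coated with antibodies to CD3 and CD28. In 3 replicate time courses, here courses 1 to 3, the stimulated cells received IL6 with TGFb or no cytokines. In the other 3, courses 4 to 6, they received IL6 and TGFb with IL1b and IL21, with IL1b, or with IL21. All stimulated groups share the antibody stimulation, each set of courses has its own unstimulated 0 h group, and each group has 3 libraries. Each of the 5 stimulated conditions was sampled at 9 times, the first at 0.5 h and the last at 72 h. The labels call the libraries of a group biological replicates but do not say which mice or cultures they share, so the p-values measure the spread between these libraries.

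In general, GATA3 is kept at a moderate level in naive CD4 T cells, having been needed for their development in the thymus, and it is raised further when IL4 acts through STAT6, or when Notch and IL2 signals reach the cell. In Th2 cells it opens and activates the locus of the cytokine genes Il4, Il5 and Il13. Its action is restrained by FOG1, the product of Zfpm1, and by T-bet, the product of Tbx21, and it opposes the Th1 and Th17 fates. GATA3 also works in regulatory T cells and in group 2 innate lymphoid cells. IL6 with TGFb is the classic signal for Th17 cells.

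The sequence just before the annotated start of Gata3 is shown because the results below concern the level of this transcript. RefSeq places the window at chr2:9878601-9878850 on the minus strand of GRCm38.p6, whereas the submitters' processing notes name mm9 (and GRCh37, a human build), so only its letters are used. The 250 bases up to the start, 5' to 3', and 30 transcribed bases at chr2:9878551-9878580 of the same build and strand, with a GATA match in capitals, read:
Gata3 upstream: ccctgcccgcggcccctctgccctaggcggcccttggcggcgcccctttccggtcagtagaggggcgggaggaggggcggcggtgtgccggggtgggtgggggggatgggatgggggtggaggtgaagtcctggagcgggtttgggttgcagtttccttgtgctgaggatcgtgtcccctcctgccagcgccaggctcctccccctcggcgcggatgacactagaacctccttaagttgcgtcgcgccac
Gata3 after the start: ctgcctggcgccgtctTGATAGtttcagaa
Searched on both strands of the window from 250 bases before to 50 bases after the start, the GATA letters, that is TGATAA or TGATAG, or with an A at the front AGATAA or else AGATAG, occurred once, as TGATAG at position 37 counted from 1 at the start. Of 32851 RefSeq mouse promoters of this length, 29.76% hold such a match. The SMAD letters CAGAC, or GTCTG on the other strand, occurred once, as GTCTG at position 5, apart from the GATA match, and 49.59% of promoters hold them. The pieces printed above do not join, since the first transcribed bases are left out, and position 5 lies among those. The STAT letters TTCNNNGAA were not in this window, and 8.298% of promoters hold them. These matches are letters only, and no binding was measured.

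Levels are CPM as deposited, that is, the reads of a gene scaled to the same total in each library, divided by a scaling factor per library (TMM) that evens out differences in RNA composition. A library held 15952020 to 47068754 reads in genes, with a median of 25403424. Gata3 drew from 17 to 5062 reads per library. Markers of CD4 T cells were detected throughout, their 6 genes summing to at least 983 CPM in every library. The library that stood farthest from its group over all genes was the course 1 library without cytokines at 72 h, with a root mean square log2 deviation of 0.619 against a median of 0.156 over all libraries. Gata3 had 55.4 CPM in that library and 48.9 and 52.5 CPM in the other libraries of the group. Gata3 results and list counts that rest on that group are also given without course 1.

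Naive cells had high Gata3. Its level was 63.0, 63.8 and 73.9 CPM at 0 h in courses 4 to 6, against 64.1, 69.1 and 73.3 CPM in courses 1 to 3. These ranges overlap, and the log2 difference was -0.04 (95% interval -0.36 to 0.27, limma adjusted p = 1), in a comparison that called 0.15% of 15318 genes at an adjusted p under 0.05.

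The mean at 0.5 h was the highest of each condition. At 0.5 h without cytokines Gata3 had 83.6, 87.0 and 100.2 CPM, all above the naive libraries of courses 1 to 3. The log2 change of 0.39 ± 0.16 (SE) was not called (adjusted p = 0.0706), in a comparison that called 23.2% of 14707 genes. It was called at a pseudocount of 2 (adjusted p = 0.0308), by edgeR (adjusted p = 0.04996), and in a fit of only these libraries without the course as a block (adjusted p = 0.0179) or with it (adjusted p = 0.00918). In courses 4 to 6 the 0.5 h levels were 96.6 to 110.2 CPM over the 9 libraries of all 3 cytokine mixes, above the 63.0 to 73.9 CPM of their naive cells with no overlap. No test of this step was run in those courses.

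Without cytokines Gata3 then fell and came back. It averaged 40.2 CPM at 1 h, 37.8 CPM at 2 h, 32.3 CPM at 4 h, 29.1 CPM at 6 h, 16.1 CPM at 12 h, 19.1 CPM at 24 h, 36.7 CPM at 48 h and 52.3 CPM at 72 h, against 68.8 CPM in naive cells. All libraries at these times lay below all naive libraries. The lowest point, at 12 h, was 15.5, 16.2 and 16.6 CPM, or 23.4% of the naive mean. The sum of the 6 CD4 T cell marker genes, which was not tested, was also lower at these times, with a median of 1276 CPM at 6 h, 1641 CPM at 12 h and 3109 CPM at 72 h without cytokines, against 4302 CPM in naive cells of courses 1 to 3. Their part in the Gata3 values was not tested.

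Each of those falls relative to 0 h was called with limma. The log2 change was -0.78 ± 0.16 at 1 h (adjusted p = 4.65e-05), -0.87 at 2 h, -1.08 at 4 h, -1.23 at 6 h, -2.06 at 12 h (adjusted p = 1.69e-15), -1.84 at 24 h, -0.90 at 48 h and -0.39 at 72 h (adjusted p = 0.0271), all with the same SE. These comparisons called 57.3% of all genes tested at 1 h, 69.2% at 2 h, 72.8% at 4 h, 72.3% at 6 h, 71.6% at 12 h, 72.6% at 24 h, 69.3% at 48 h and 65.2% at 72 h, so a call against naive cells was common. By 72 h the gene was at 76.0% of its naive mean. Leaving out course 1, 2 or 3 ended the 72 h call (adjusted p = 0.0704, 0.0535 and 0.0886), as did leaving out TMM scaling (adjusted p = 0.127).

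**Figure D1:**
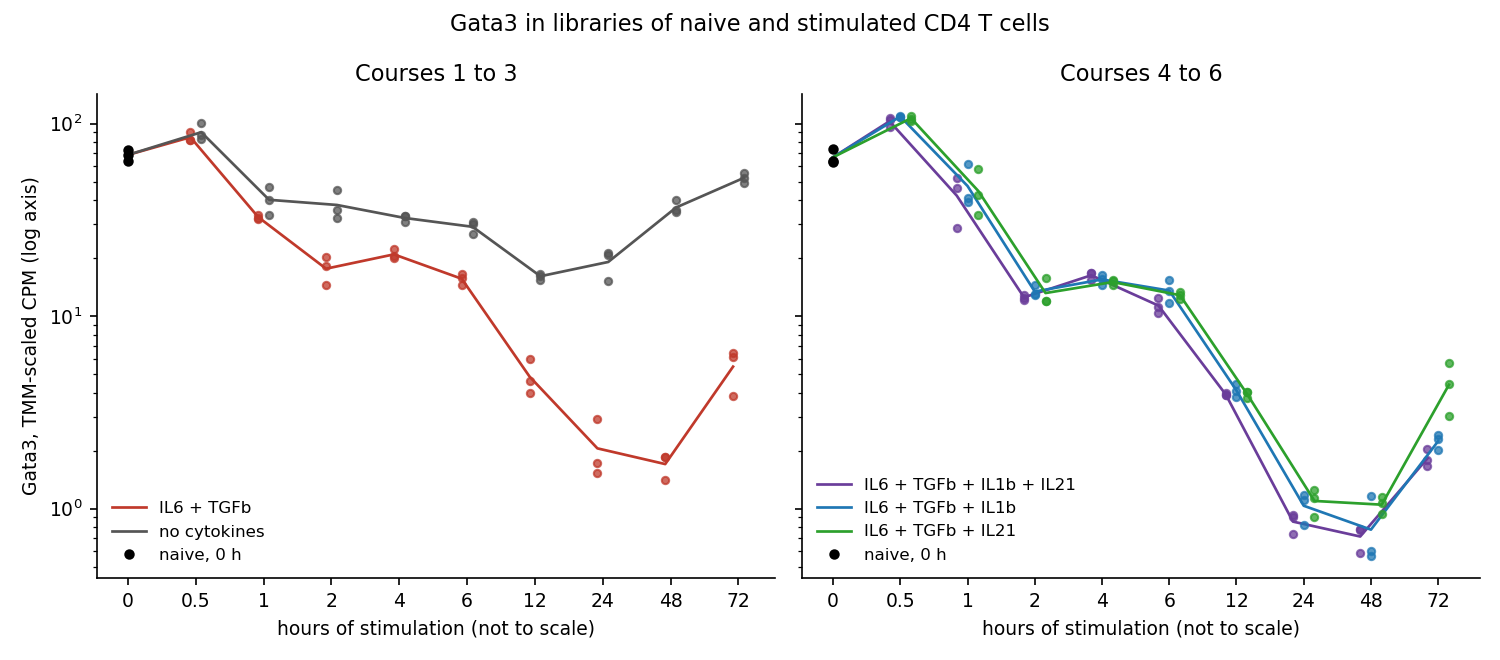
Gata3 in TMM-scaled CPM on a log axis, 1 point per library and a line through the group means, against hours of stimulation (not to scale). All mixes fall after 0.5 h, the mixes with added cytokines reach about 1 CPM at 24 to 48 h, and the cells without cytokines return to a mean of 52.3 CPM at 72 h.

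Gata3 was lower with IL6 and TGFb than with stimulation alone from 2 h on. In bulk RNA, fewer cells with the transcript and less of it per cell cannot be told apart. At 0.5 h Gata3 had 82.3, 82.5 and 90.2 CPM with IL6 and TGFb and 83.6, 87.0 and 100.2 CPM without cytokines, and their ranges overlap. At 1 h the ranges did not overlap, at 32.1, 32.5 and 33.4 CPM with IL6 and TGFb and 33.6, 40.1 and 46.9 CPM without cytokines. At 2 h Gata3 was at 14.5, 18.2 and 20.2 CPM with IL6 and TGFb, against 32.5, 35.7 and 45.2 CPM without cytokines. That 2 h gap was 2.11-fold.

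The log2 difference, IL6 with TGFb minus no cytokines, was -0.08 at 0.5 h (95% interval -0.40 to 0.24, adjusted p = 1) and -0.28 at 1 h (-0.60 to 0.04, adjusted p = 0.414), and neither was called. With the course as a block in a fit of these 6 libraries, the 1 h difference was called (adjusted p = 0.0249), and with the block among all libraries of courses 1 to 3 it was not (adjusted p = 0.375). From 2 h on it was called at each time, at -1.08 ± 0.16 at 2 h (adjusted p = 1.37e-06), -0.62 at 4 h (adjusted p = 0.0109) and -0.88 at 6 h (adjusted p = 0.000116), and it reached -1.65 by 12 h (adjusted p = 3.53e-11). The 4 h call was lost without course 2 (adjusted p = 0.0559) and without course 3 (adjusted p = 0.201). Shares of all genes called were 0.619% at 0.5 h, 7.97% at 1 h, 12.7% at 2 h, 4.3% at 4 h, 4.56% at 6 h and 9.45% at 12 h. Ordered by log2 change, Gata3 was the 86th lowest of 14707 genes at 2 h.

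The gap was wide at the late times. At 24 h Gata3 had 1.52, 1.72 and 2.92 CPM with IL6 and TGFb, against 15.1, 20.8 and 21.4 CPM without cytokines. At 48 h it had 1.40, 1.85 and 1.86 CPM with the cytokines, against 34.6, 35.4 and 40.0 CPM without them. At 72 h it had 3.83, 6.12 and 6.44 CPM with the cytokines, against 48.9, 52.5 and 55.4 CPM without them. In every course the cytokine-treated cells were lower at these times, and no ranges overlap.

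In log2 terms the difference was -2.96 ± 0.16 at 24 h (adjusted p = 1.46e-19), -4.08 by 48 h (adjusted p = 1.16e-24) and -3.17 for the 72 h libraries (adjusted p = 3.65e-21), which is 7.80-fold, 16.9-fold and 9.03-fold lower on the scale of CPM plus 0.5. Over 13 alternatives the log2 difference spanned -3.35 to -2.38 at 24 h, -4.46 to -3.38 at 48 h and -3.28 to -2.88 at 72 h, called in each, and the smallest sizes came with a pseudocount of 2. These comparisons called 25.9% of genes at 24 h, 52.6% at 48 h and 46% at 72 h, and by log2 change Gata3 was the 44th, 31st and 34th lowest of 14707 genes at these times. Without course 1 the 48 h and 72 h values were -4.07 and -3.26, both called.

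**Figure D2:**
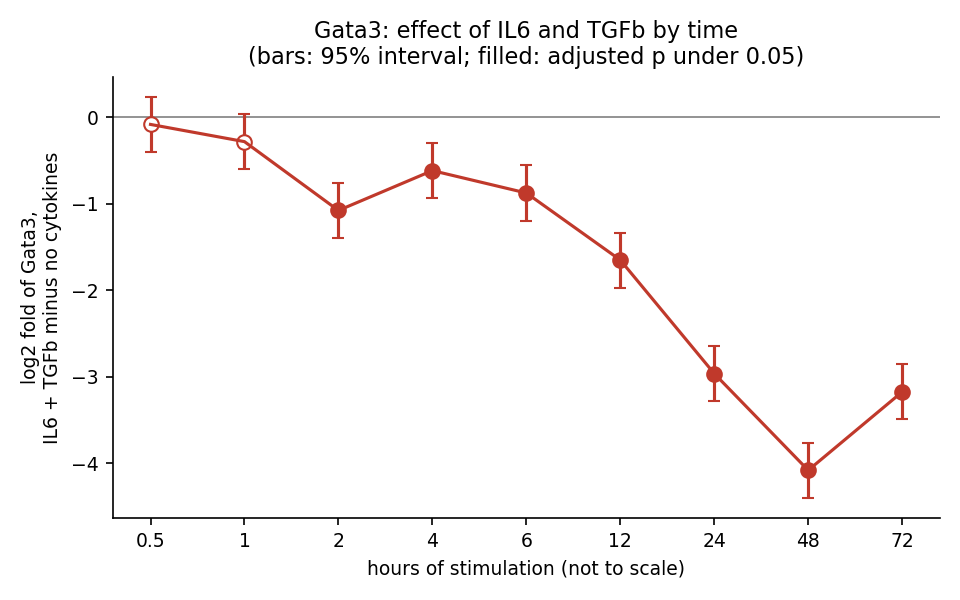
Log2 fold of Gata3, IL6 with TGFb minus no cytokines, at 9 times (not to scale), with 95% intervals from limma and 3 libraries per group. The value is near 0 at 0.5 h, reaches -1.08 at 2 h and -4.08 at 48 h, and open circles mark the times not called at an adjusted p under 0.05.

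The 24 h effect was larger than the 2 h effect when the difference itself was tested. The later effect minus the earlier one was -1.89 ± 0.22 in log2 (adjusted p = 8.34e-09), in a comparison that called 19.6% of genes. Between 24 and 72 h the change in the effect was -0.21 (95% interval -0.66 to 0.24, adjusted p = 0.579), and 21.3% of genes were called. Leaving out course 2 turned this last value to 0.34, leaving out course 1 gave -0.53, and with a pseudocount of 2 it was -0.50 and called (adjusted p = 0.0485). Both conditions had more Gata3 at 72 h than at 24 h, with no overlap between the libraries of these times in either.

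Against naive cells, Gata3 with IL6 and TGFb was down to 25.6% of the naive mean at 2 h, 2.99% at 24 h, 2.47% at 48 h and 7.94% at 72 h. The log2 change was -1.95 ± 0.16 at the 2 h point (adjusted p = 1.05e-14), -4.80 at 24 h (adjusted p = 8.41e-28), and -3.57 at 72 h (adjusted p = 1.56e-23). These contrasts called 70.7%, 75.4% and 74.7% of genes at those times. Gata3 was the 71st lowest of 14707 genes at 24 h.

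The mixes with IL1b, IL21 or both gave the lowest Gata3 of the series. With IL1b and IL21 together its mean was 42.2 CPM at 1 h, 12.5 CPM at 2 h, 16.3 CPM at 4 h, 11.3 CPM at 6 h, 3.92 CPM at 12 h, 0.856 CPM at 24 h, 0.716 CPM at 48 h and 1.82 CPM at 72 h. With IL1b added it was 47.4, 13.4, 15.5, 13.6, 4.11, 1.03, 0.777 and 2.24 CPM at the same times, and with IL21 added 44.7, 13.2, 15.03, 12.8, 3.93, 1.096, 1.05 and 4.399 CPM. IL6 with TGFb alone gave 32.7, 17.6, 20.9, 15.6, 4.85, 2.06, 1.70 and 5.46 CPM. In all 4 mixes the mean was lower at 2 h than at 1 h, somewhat higher at 4 h, lower again at 6 h and 12 h, lowest at 48 h, and higher at 72 h than at 48 h with no overlap of libraries. The returns at 4 h and 72 h were not tested.

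At 1 h the libraries of the 3 mixes with IL1b or IL21 spread widely, from 28.6 to 61.8 CPM. By 2 h they lay between 11.9 and 15.7 CPM. At the lowest point, 48 h, the level rested on 17 to 38 reads per library, so counting error limits the precision there.

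Relative to their own naive cells, all 3 mixes had lower Gata3 at 2, 24 and 72 h, the times tested. The log2 change was -2.37 ± 0.16 at 2 h, -5.63 at 24 h (adjusted p = 4.35e-41) and -4.86 at 72 h with both added cytokines. With IL1b it was -2.27 at 2 h, -5.46 at 24 h (adjusted p = 2.46e-40) and -4.62 by 72 h, and with IL21 -2.31 at 2 h, -5.40 at 24 h (adjusted p = 4.55e-40) and -3.82 at 72 h. At 24 h these values were 49.7-fold, 44.0-fold and 42.3-fold decreases on the scale of CPM plus 0.5. With both, 73.9% of 14895 genes were called at 2 h, 79.7% at 24 h and 81.5% at 72 h. The shares were 73.1%, 79.1% and 82% with IL1b and 72.5%, 78.5% and 79.9% with IL21. The 3 mixes share their naive libraries, so these values are not independent of each other.

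Among the 3 mixes, differences in Gata3 were called in the late stage. At 72 h it had 1.66, 1.79 and 2.03 CPM with both added cytokines, 2.01, 2.29 and 2.42 CPM with IL1b, and 3.04, 4.42 and 5.74 CPM with IL21. The IL21 libraries lay above all libraries of the other mixes at that time. At 48 h the level was 0.588, 0.775 and 0.785 CPM with both and 0.568, 0.601 and 1.16 CPM with IL1b, against 0.933, 1.07 and 1.15 CPM with IL21, and only the mix with both lay wholly below IL21. At 24 h all 3 ranges overlap, at 0.737 to 0.925 CPM with both, 0.820 to 1.17 CPM with IL1b and 0.905 to 1.24 CPM with IL21.

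Averaged over 24 to 72 h, the log2 difference from IL21 was -0.54 ± 0.09 with both added cytokines (adjusted p = 1.24e-05) and -0.39 ± 0.09 with IL1b (adjusted p = 0.00179). These comparisons called 6.63% and 11% of genes. The IL1b value missed the threshold without course 5 (adjusted p = 0.0792) and in a fit of those libraries by themselves (adjusted p = 0.0590). The difference between the mix with both and that with IL1b was not called, at -0.15 (95% interval -0.33 to 0.03, adjusted p = 1). That comparison called 0% of genes in limma, with 245 genes at an unadjusted p under 0.05 and 0 genes called by edgeR and by DESeq2.

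In the earlier stages no difference among the mixes was called. Over 0.5 to 2 h the log2 difference was -0.07 (95% interval -0.25 to 0.11) for both against IL21, 0.05 (-0.13 to 0.23) for IL1b against IL21 and -0.12 (-0.30 to 0.06) for both against IL1b. Over 4 to 12 h these values were -0.02 (-0.20 to 0.16), 0.06 (-0.13 to 0.24) and -0.08 (-0.26 to 0.10). Few genes of any kind were called: 0% for both against IL21, 0.0537% for IL1b against IL21 and 0.49% for both against IL1b over 0.5 to 2 h, and 0.00671%, 0.175% and 0.134% over 4 to 12 h. The 0% rests on limma, with 981 genes at an unadjusted p under 0.05 and 0 genes called by edgeR and by DESeq2.

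**Figure D3:**
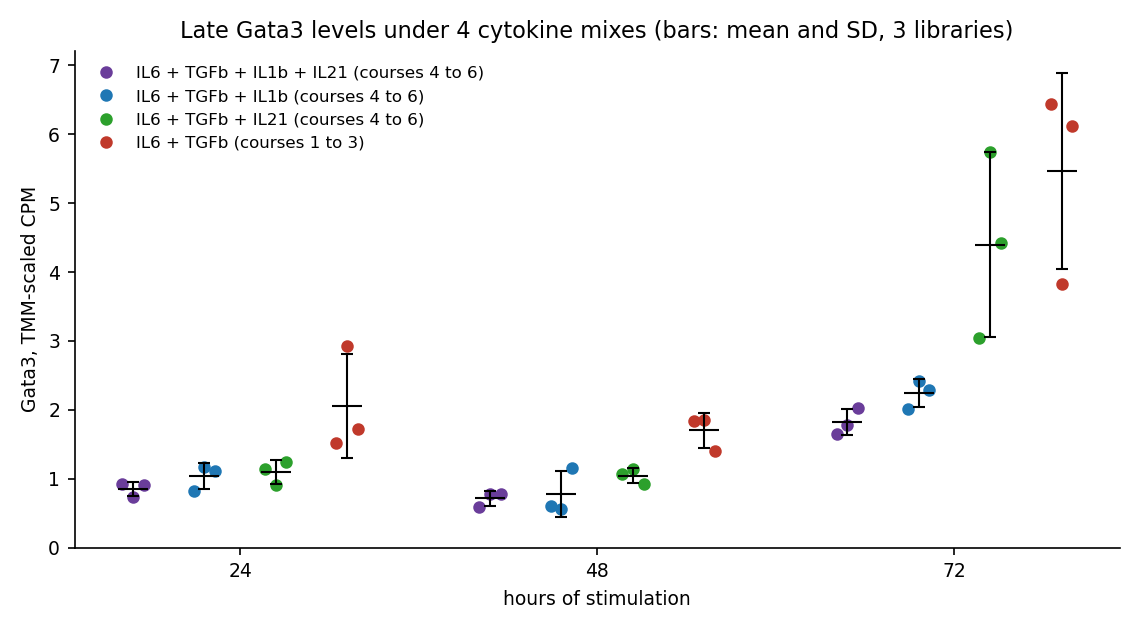
Gata3 in TMM-scaled CPM at 24, 48 and 72 h under 4 cytokine mixes, 1 point per library, with the mean and SD of 3 libraries in black. At 72 h the libraries with IL21 reach 3.04 to 5.74 CPM, above both mixes with IL1b and overlapping IL6 with TGFb alone, at 3.83 to 6.44 CPM.

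The 3 mixes and IL6 with TGFb alone were grown in different courses, so each was set against its own naive cells before comparison. Less those, the late log2 difference from IL6 and TGFb alone was -0.98 ± 0.18 for the mix with both (adjusted p = 0.000439) and -0.83 ± 0.18 for the mix with IL1b (adjusted p = 0.00646), and the shares of genes called were 0.522% and 0.64% of 15318. For the mix with IL21 the value was -0.44 (95% interval -0.80 to -0.07), not called (adjusted p = 1), where limma called 0% of genes, 635 genes had an unadjusted p under 0.05, edgeR called 0 and DESeq2 called 6. The IL1b call was lost without course 3 (adjusted p = 0.0608), without course 4 (adjusted p = 0.0709), at a pseudocount of 2 (adjusted p = 0.109) and in a fit of those libraries by themselves (adjusted p = 0.0783). A difference between the sets of courses that arose in culture cannot be told apart from the added cytokine here.

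Ordered by mean level, the 47 groups ran from 109 ± 1.07 CPM (SD, n = 3) with IL1b at 0.5 h to 0.716 ± 0.111 CPM with both added cytokines at 48 h. The 5 groups at 0.5 h led, followed by both naive groups and by the cells without cytokines at 72 h. Of 46 pairs of neighbours in this order, 38 overlap in their libraries and 8 do not. The step without overlap with the largest ratio of means lies between the mix with both at 6 h, at 10.4 to 12.4 CPM, and IL6 with TGFb at 72 h, at 3.83 to 6.44 CPM. Below that step lie only groups with cytokines at 12 h or later, that is, all 16 of them, and no group without cytokines.

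Of the other GATA genes, Gata4, Gata5 and Gata6 averaged at most 0.403 CPM in any group. Gata2, a gene of mast cells and basophils, averaged at most 0.220 CPM. Gata1, a gene of red cell development, was the only other family member tested. It had 0.716, 0.904 and 0.947 CPM at 72 h with IL6 and TGFb, against 0.601, 17.1 and 22.5 CPM without cytokines. The ranges overlap through the course 1 library that stood apart. The Gata1 log2 difference was called, at -2.497 ± 0.51 (adjusted p = 8.47e-05), and at -3.92 without course 1. At 1 h the Gata1 difference was called in the other direction, with means of 11.3 CPM with IL6 and TGFb and 1.63 CPM without cytokines (log2 2.48 ± 0.51, adjusted p = 0.000491). At 48 h it was called lower (log2 -1.85, adjusted p = 0.00234). Gata1 was named after its values were seen.

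Receptor and signal genes that can raise Gata3 were higher more often than lower. Here and in the lists below, a rise or fall compares IL6 and TGFb with no cytokines at the same time, not with naive cells. Of 16 such genes, all tested, 4 rose and 2 fell at 2 h with IL6 and TGFb relative to no cytokines, 9 rose and 2 fell at 24 h, and 7 rose and 1 fell at 72 h. Over all genes, 5.36% rose and 7.3% fell at 2 h, 13.5% rose and 12.5% fell at 24 h, and 22.7% rose and 23.2% fell at 72 h. At these times the list's median log2 difference was -0.04, 0.77 and 0.30, beside -0.03, -0.02 and -0.05 over all genes. Without course 1, 6 rose and 4 fell at 2 h, 9 rose and 4 fell at 24 h, and 12 rose and 3 fell at 72 h. For all genes these shares were then 5.6% and 10.7%, 13.6% and 12.7%, and 28.6% and 28.9%.

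Il4ra, the IL4 receptor chain, averaged 391 CPM with IL6 and TGFb at 24 h and 117 CPM without cytokines, a log2 difference of 1.74 ± 0.25 (adjusted p = 4.93e-07). All libraries of both groups lay below the naive libraries of courses 1 to 3, at 429, 451 and 506 CPM. Stat6, the factor that IL4 activates, was at 215 CPM with the cytokines and 271 CPM without them at 24 h and was not called (adjusted p = 0.0576), but was called without course 1, at a log2 difference of -0.35 (adjusted p = 0.00648). At 2 h and 72 h Stat6 was not called with all courses, and was called without course 1, at -0.34 and 0.49. Notch1, a receptor whose signal can switch on Gata3, rose to 1834 CPM at 2 h with IL6 and TGFb, against 483 CPM without cytokines (log2 1.92 ± 0.10, adjusted p = 1.49e-18). Rbpj, the DNA-binding partner of Notch, rose at 24 h (log2 1.502) and at 72 h, when it averaged 758 CPM with the cytokines and 82.1 CPM without them (log2 3.21 ± 0.17, adjusted p = 2.2e-20). Tcf7, the gene of TCF1, which can activate Gata3, was not called at 2, 24 or 72 h. Without course 1, Tcf7 was called at 2 h, at -0.66, and at 72 h, at -0.80 (adjusted p = 0.000731).

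At 24 h, Bcl3, an NF-kB cofactor, rose by 3.37 ± 0.45 in log2, Il2ra, a chain of the IL2 receptor, by 2.22 ± 0.38, and Stat5a, a factor that IL2 activates, by 1.47 ± 0.22. Gata3 was 7.80-fold lower in the same libraries.

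Restraints on GATA3 gave a mixed picture. Of 10 listed genes, 9 were tested, and with IL6 and TGFb 2 rose and 3 fell at 2 h, 4 rose and 2 fell at 24 h, and 3 rose and 2 fell at 72 h. The median log2 difference was -0.42, 0.57 and 0.64 at these times. Without course 1, 2 rose and 5 fell at 2 h, 5 rose and 2 fell at 24 h, and 5 rose and 2 fell at 72 h. The shares and medians over all genes given above for the signal genes are the background here too. Zfpm1, the gene of FOG1, was called lower at 2 h (log2 -0.42), 24 h and 72 h, as Gata3 was. Its 2 h call was lost in 7 of 13 alternatives, and it was not called at 4 h (-0.12) or 6 h (-0.28), unlike Gata3. Zfpm1 had 13.1, 15.3 and 16.4 CPM at 72 h with IL6 and TGFb, against 109, 114 and 147 CPM without cytokines, a log2 difference of -3.00 ± 0.13 (adjusted p = 1.04e-22). The libraries without cytokines lay above the 70.1, 75.2 and 88.0 CPM of naive cells of courses 1 to 3. At 24 h Zfpm1 averaged 54.4 CPM with the cytokines and 85.8 CPM without them, a log2 fall of smaller size (-0.65, adjusted p = 0.000188), and the difference between these times was not tested.

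Tbx21, the gene of T-bet, went up early. At 2 h it had 204, 210 and 236 CPM with IL6 and TGFb, against 3.41, 6.45 and 9.51 CPM without cytokines, a log2 rise of 5.06 ± 0.61 (adjusted p = 1.7e-08). It was not called at 24 h or at 72 h. At 72 h its mean was 7.78 CPM with IL6 and TGFb and 12.8 CPM without cytokines, while the log2 difference was 0.65, because the mean without cytokines rests on 35.1 CPM in the course 1 library and the others had 0.985 and 2.18 CPM. Without course 1, Tbx21 was called higher at 72 h, at 2.15 (adjusted p = 4.53e-06), and by edgeR and DESeq2 on all courses the sign turned, at -0.72 in each, not called. Sox4, whose product blocks GATA3, fell at 2 h (log2 -0.72), rose at 24 h (log2 1.20 ± 0.19, adjusted p = 2.2e-06) and was not called at 72 h. Zbtb32, which holds back GATA3 activity, fell at 24 h (log2 -1.994 ± 0.51), and Runx1, a repressor of Gata3, rose at 24 h (log2 1.37 ± 0.18). Neither was called at 2 h or 72 h with all courses. Without course 1, Zbtb32 was called higher at 72 h, at 2.50, and Runx1 lower at 2 h and 72 h, at -0.44 and -0.78. Runx3 and Fbxw7, a Runx factor of Th1 and CD8 T cells and a ubiquitin ligase for GATA3, rose by 0.67 and 0.47 at 24 h. At 2 h Runx3 was called higher (0.99) and Fbxw7 lower (-0.46).

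The cytokine genes that GATA3 drives were low in every condition. Of Il4, Il5, Il13 and Il31, only Il4 passed the filter in courses 1 to 3. In the late comparisons among the mixes of courses 4 to 6, 2 were tested and 0 were called. Il5 averaged at most 0.0507 CPM and Il13 at most 1.56 CPM in any group. Il4 had 2.02, 3.25 and 4.74 CPM at 72 h with IL6 and TGFb, against 0.195, 0.334 and 0.387 CPM without cytokines. It rose by 2.20 ± 0.21 in log2 (adjusted p = 3.87e-12), in the same libraries in which Gata3 was 9.03-fold lower. At 2 h and 24 h it was not called.

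Receptors and secreted proteins of Th2 cells formed a list of 7 genes, all tested. Of these, 0 rose and 1 fell at 2 h, 2 rose and 0 fell at 24 h, and 3 rose and 0 fell at 72 h, beside 12.7%, 25.9% and 46% of all genes called at these times. Without course 1, 6 were tested, and 1 rose and 2 fell, 2 rose and 0 fell, and 3 rose and 0 fell. With all courses the list had a median log2 difference of -0.13, 0.07 and 0.12. Ccr8, a chemokine receptor of Th2 and regulatory T cells, averaged 48.7 CPM at 24 h with IL6 and TGFb and 12.98 CPM without cytokines (log2 1.87 ± 0.299, adjusted p = 2.78e-06). Its direction differed by time. At 1 h Ccr8 was called lower with the cytokines (log2 -1.08, limma adjusted p = 0.0130), and at 2 h it was not called (-0.62). At 72 h it was not called either, and 13 alternatives spanned -1.01 to 0.0036, of which 5 gained a call. Of 8 transcription factors that act beside GATA3 in Th2 cells, 7 were tested, and 4 rose and 0 fell at 2 h, 4 rose and 1 fell at 24 h, and 7 rose at 72 h, with a median log2 difference of 0.66, 1.34 and 2.199. Pparg, among these 7, had its highest group mean, 1.46 CPM, with IL6 and TGFb at 72 h, near the filter of 1 CPM. Its place among the tested genes thus rests on the group where it was high, and its 72 h rise adds no support. Without course 1, 6 were tested, of which 3, 4 and 6 rose and 0, 1 and 0 fell at these times. By comparison, the share of all genes called higher was 5.36% (2 h), 13.5% (24 h) and 22.7% (72 h) with all courses. The share called lower was 7.3%, 12.5% and 23.2%. Without course 1 the 72 h share called higher was 28.6%. Maf, which drives Il4 and also works in Th17 cells, averaged 493 CPM at 24 h with IL6 and TGFb and 4.67 CPM without cytokines (log2 6.63 ± 0.31, adjusted p = 1.29e-21). Nfil3, a bZIP factor, rose by 2.68 ± 0.16 at 24 h, and Satb1, a chromatin organizer, and Junb, an AP-1 subunit, by 1.58 ± 0.21 and 1.34 ± 0.28.

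Some regulators of other fates were higher. Of 5 genes, all tested, among them Tbx21 and Bcl6 of the list of restraints, 2 rose and 0 fell at 2 h, 2 rose and 0 fell at 24 h, and 3 rose and 1 fell at 72 h, with a median log2 difference of 0.56, 1.29 and 1.18. Without course 1, 2 rose and 1 fell at 2 h, 4 rose and 0 fell at 24 h, and 4 rose and 1 fell at 72 h. Among all genes, 5.36% were called higher and 7.3% lower in the 2 h comparison, with a median log2 difference of -0.03. For 24 h these values were 13.5%, 12.5% and -0.02. The 72 h values were 22.7%, 23.2% and -0.05. Leaving out course 1 gave 5.6% higher and 10.7% lower (2 h), 13.6% and 12.7% (24 h), 28.6% and 28.9% (72 h). Rora, a nuclear receptor gene that acts in Th17 cells, rose by 5.41 ± 0.25 at 24 h, and Ahr, the dioxin receptor, by 4.57 ± 0.29. Foxp3, the regulator of regulatory T cells, was not called at 2 or 24 h, though without course 1 the 24 h rise was called (adjusted p = 0.0163). At 72 h Foxp3 had 0.903, 1.21 and 1.51 CPM with IL6 and TGFb, against 1.302, 20.9 and 21.6 CPM without cytokines (log2 -2.49 ± 0.57, adjusted p = 0.0004), and the ranges overlap through the course 1 library. Without course 1 it was -3.695.

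**Figure D4:**
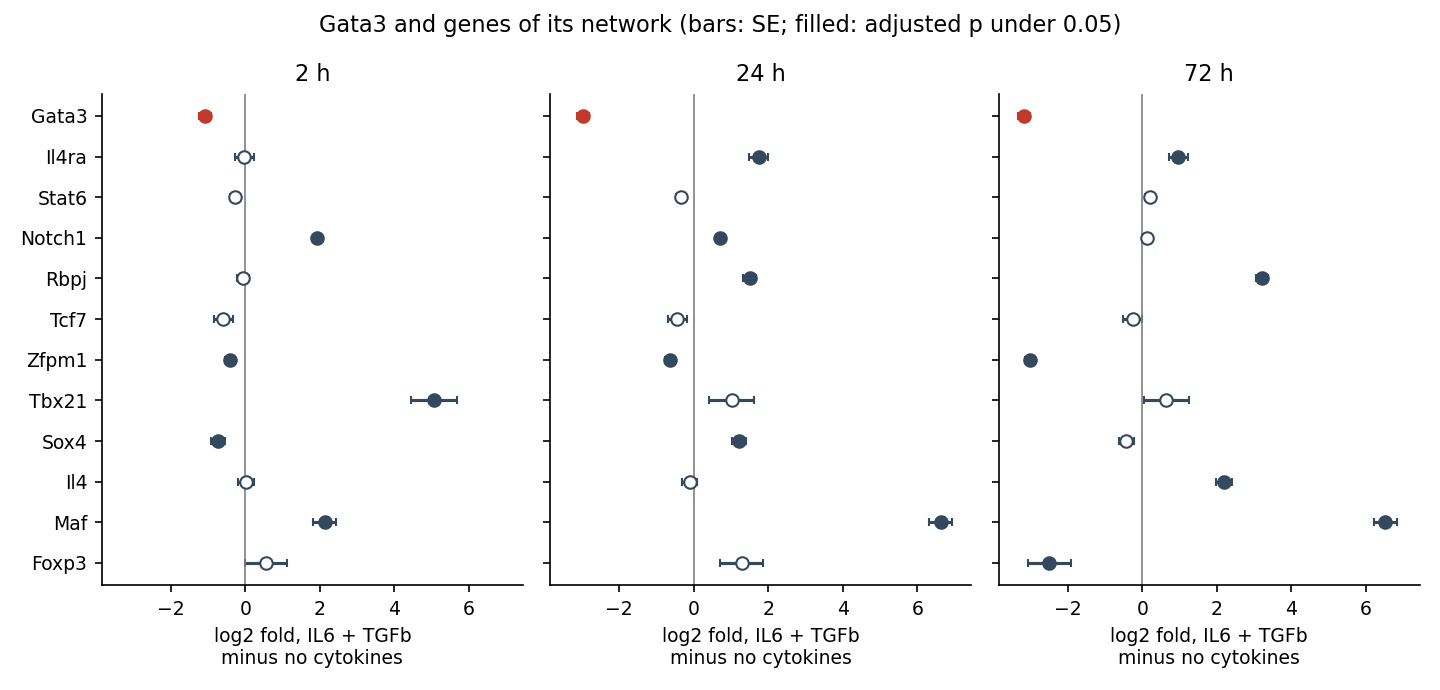
Log2 fold, IL6 with TGFb minus no cytokines, of Gata3 and 11 genes that signal to it, restrain it, depend on it or mark other fates, at 2, 24 and 72 h, with SE from limma and 3 libraries per group. Filled circles passed an adjusted p under 0.05. Gata3 and Zfpm1 are low together at 72 h, while Maf is high at 24 and 72 h.

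Markers of other cells were looked at beside these results, and their part in them was not tested. Group 2 innate lymphoid cells also express Gata3, and their 4 markers include Il5 and Il13, which Th2 cells express too. These markers summed to 0.144 to 0.275 CPM at 24 h with IL6 and TGFb, with 1 of the 4 at 0, and to 0.2997 to 0.513 CPM without cytokines, with none at 0. At 2 h the sums were higher, at 1.31 to 2.03 CPM with IL6 and TGFb and 1.11 to 1.46 CPM without cytokines. For the 4 markers of mast cells and basophils these sums were 0 to 0.267 CPM with IL6 and TGFb and 0.0366 to 0.0721 CPM without cytokines, with 2 of the 4 at 0 in each group. The CD8 genes were Cd8a and Cd8b1. Their sum was 1.98 to 2.65 CPM at 24 h with IL6 and TGFb and 32.8 to 40.7 CPM without cytokines. Nearly all of the sum without cytokines was Cd8b1, with a mean of 35.7 CPM. Cd8a averaged at most 2.11 CPM in any group. The 6 CD4 T cell markers summed to 1241 to 1294 CPM with the cytokines and 1961 to 2218 CPM without them at that time. Of the regulatory T cell markers, Foxp3 and Ikzf2, the sum was 6.95 to 10.8 CPM at 72 h with IL6 and TGFb and 12.05 to 37.2 CPM without cytokines.

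Other transcripts overlap Gata3 in the GENCODE M21 annotation, and whether reads were counted by strand is not stated, so their reads could not be told apart. The antisense gene Gm13256, over the first exon, reached at most 0.356 CPM in any library. The noncoding genes 4930412O13Rik and 9230102O04Rik, which lie within the longest Gata3 annotation, reached at most 0.113 and 0.104 CPM. Taf3, the nearest protein-coding gene, ranged from 27.2 to 59.3 CPM.

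Genes whose group means followed Gata3 most closely were sought among 10361 genes tested over all libraries. Each had a highest group mean of at least 5 CPM, and genes with clone or predicted-gene symbols were passed over. Pearson's r of the mean log2 levels was taken over the 19 groups of courses 1 to 3 and over the 28 groups of courses 4 to 6 apart. Genes were ranked by the weaker of both values. The points share libraries, depth and naive cells with Gata3, and r is a description only. Clec2i, a C-type lectin gene, was closest, at r = 0.968 and 0.974 in these sets. It averaged 0.613 CPM at 24 h with IL6 and TGFb, 9.69 CPM at 24 h without cytokines and 61.5 CPM in naive cells of courses 1 to 3. Then came Ikzf1, the gene of the lymphoid factor Ikaros (0.926 and 0.955), Trat1, an adaptor of the T cell receptor complex (0.944 and 0.923), Kcna2, a potassium channel gene (0.916 and 0.969), and Zfp950, a zinc-finger gene (0.915 and 0.914). By the same ranking Ahr ran most strongly the other way, at r = -0.945 and -0.951, and averaged 338 CPM at 24 h with IL6 and TGFb, 13.8 CPM at 24 h without cytokines and 4.55 CPM in naive cells of courses 1 to 3. The next were Rad54l2, a helicase gene (-0.9302 and -0.922), Psmd8, a proteasome subunit gene (-0.909 and -0.979), Nek6, a kinase gene (-0.902 and -0.92997), and Arhgdig, the gene of a GDP-dissociation inhibitor (-0.903 and -0.896). By Spearman's rho the weaker values ran from 0.830 (Kcna2) to 0.944 (Clec2i) for genes like Gata3. For the opposite genes they ran from -0.733 (Nek6) to -0.900 (Ahr). Without cytokines Nek6 means stayed between 4.49 CPM (12 h) and 5.92 CPM (48 h) from 0.5 h on. Pearson's r does not measure the size of a change. Group means ran from 363 to 1120 CPM for Ikzf1 and from 83.5 to 187 CPM for Rad54l2, against 0.716 to 109 CPM for Gata3. At 0.5 h without cytokines, where Gata3 was above its naive mean, Clec2i averaged 54.6 CPM, below its own.

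**Figure D5:**
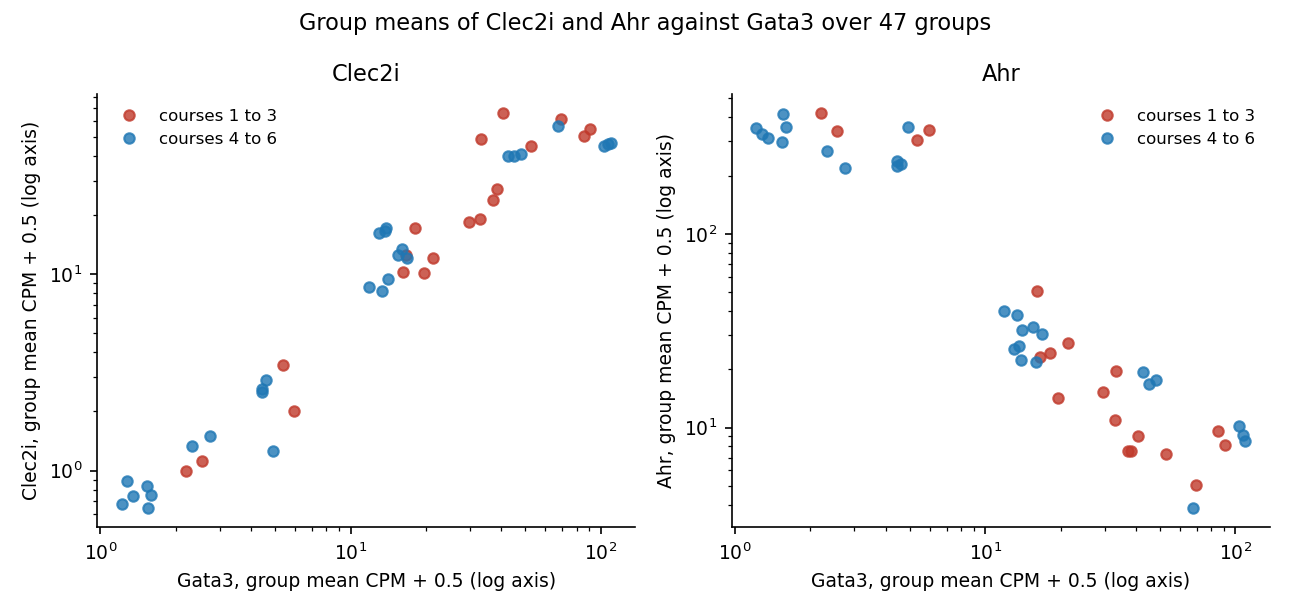
Group means in CPM plus 0.5 on log axes of Clec2i and Ahr against Gata3, 1 point for each of 47 groups, coloured by set of courses. Clec2i is high where Gata3 is high and Ahr is high where Gata3 is low, in both sets.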

How the data were processed

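Total RNA of each sample was sequenced, and the authors deposited 1 table of CPM values (gene reads scaled to a fixed library total), without TMM scaling. The submitters' processing notes name TopHat and HTSeq, without versions or roles, and the builds mm9 and GRCh37; the use of strand in counting is not stated there. All values (100%, within 0.001) were whole multiples of the smallest value of their library, so reads were recovered from them. Levels were divided by TMM factors (0.779 to 1.18) taken over all libraries, and log2(CPM + 0.5) was fitted with limma 3.58.1 (trend) in R 4.3.3, keeping genes that reached 1 CPM in 3 or more libraries, with Benjamini-Hochberg adjustment over every gene tested in each comparison and a call at an adjusted p under 0.05. Courses 1 to 3 were fitted together (57 libraries), courses 4 to 6 together (84 libraries), and comparisons across these sets over all libraries. Fold changes on this scale understate the change of low levels.

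Alternatives were pseudocounts of 0.1 and 2, no filter, no TMM scaling, DESeq2 scaling, edgeR 4.0.16 and DESeq2 1.42.0 on the recovered reads, only the libraries compared, the course as a block, leaving out each course, and Spearman's rho for likeness. No pair of libraries held identical values, and replicates differed by at least 2.74 times sampling noise. The script was tested on simulated data. The genes and lists were chosen with earlier results of these data known. Named were 11 set genes (a further set gene and list member is not reported here), up to 4 more of each list called at 24 h with at least 5 CPM, by size of change, and the 5 genes most and least like Gata3. Same-numbered courses were taken to pair libraries where every correlation of deviations from the group means was over 0.1, which held for 19 of 41 comparisons, among them IL6 with TGFb against no cytokines at 1 h (0.375 to 0.546) but not at 24, 48 or 72 h.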

Additional observations from a re-analysis of the deposited data

Results flagged for a closer look

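The effect of IL6 and TGFb on Gata3, relative to no cytokines, differed between 24 h and 2 h when the difference was tested: the 24 h effect minus the 2 h effect was -1.89 ± 0.22 in log2 (limma, adjusted p = 8.34e-09). Gata3 was lower with the cytokines than without them in 3 of 3 courses at both times. Leaving out 1 course at a time gave -2.37 to -1.61, all called, and a pseudocount of 2 gave -1.365, also called.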

How the results depend on the processing

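Of 589 values of Gata3 under alternatives, 567 kept their direction and their side of the threshold, 13 lost a call, 6 gained one and 3 turned sign. At 0.5 h without cytokines against 0 h, the log2 change was called at a pseudocount of 2 (0.38), by edgeR (0.397) and with only the libraries compared, without or with a replicate block (0.386). Against 0 h at 72 h the call was lost without TMM scaling (-0.27), with the replicate block in only those libraries (-0.39), and in leaving out courses (-0.45 to -0.34). For IL6 with TGFb against no cytokines, the 1 h value was called with that block (-0.28), and the 4 h value spanned -0.64 to -0.57 without 1 course. The replicate block changed no other Gata3 call. The 72 h effect minus the 24 h effect was -0.50 at a pseudocount of 2, called, and -0.53 to 0.34 without 1 course, turning sign without course 2 and not called there or with all courses. The late IL1b value was -0.39 against IL21 with only the libraries compared, not called, and -0.46 to -0.34 without 1 course. Less 0 h, IL1b against IL6 with TGFb was not called at a pseudocount of 2 (-0.499) or with only the libraries compared (-0.83), and was -0.95 to -0.67 without 1 course. The other values that turned sign, called in neither form, were the early IL1b against IL21 value (-0.0089 to 0.12) and the 0 h difference (-0.12 to 0.0036). The cause of these changes was not tested.

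Among other genes, for IL6 with TGFb against no cytokines, Tbx21 at 72 h was -0.7195 by edgeR, -0.7232 by DESeq2 and -0.23 to 2.15 without 1 course. Without 1 course, at 2 h Il4 spanned -0.19 to 0.24, Il4ra -0.098 to 0.016 (DESeq2 0.0156) and Zbtb32 -0.43 to 0.28, at 24 h Gata1 spanned -0.12 to 0.0021, and at 72 h Notch1 spanned -0.021 to 0.37, Tcf7 -0.80 to 0.13 and Ccr8 -1.01 to 0.0036. Counts of genes called moved by over 1.5 times in 26 comparisons (117 values), for example 1862 genes at 2 h for IL6 with TGFb against no cytokines, against 668 without course 2 and 4016 with the block in only those libraries, and 6764 genes at 72 h, against 1173 with that block and 8228 without course 1. Without TMM scaling the median of all genes shifted by over 0.1 in 9 comparisons, by -0.25 to 0.14. At the lowest levels Gata3 rests on 17 reads in a library.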
